A study of Mus musculus with 4 samples.

Results

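The arrays of NIH-3T3:Per2-Luc fibroblasts taken 20 h and 32 h after a cOS-pulse were set against each other. They are 2 of the 4 arrays of the series, both from cells given the same pulse of 5 mM H2O2 lasting 10 min, and they lie 12 h apart, at opposite phases of the circadian day. The other 2 arrays, one from 4 h after the same pulse and one from control cells at 0 mM H2O2 whose label also gives 4 h, served only as reference levels. The series has no control array at 20 h or 32 h, and the paper states that control cells received fresh medium. NIH-3T3:Per2-Luc is an immortalized mouse fibroblast line that carries luciferase under the *Per2* promoter, so all 4 arrays share this reporter. Each condition was hybridized once, no test was possible and no p-value is given, and the circadian phase cannot be told apart from the longer recovery after the pulse.

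In mammalian cells the clock is a transcriptional loop. BMAL1 (encoded by *Arntl*) and CLOCK bind E-box sequences and drive *Per*, *Cry*, *Nr1d1*, *Nr1d2* and the PAR bZIP genes *Dbp*, *Tef* and *Hlf*, while PER and CRY proteins inhibit BMAL1:CLOCK. ROR and REV-ERB (*Nr1d1*, *Nr1d2*) proteins act on RORE sequences and set the rhythm of *Arntl*, which in synchronized cells peaks when the E-box genes are low. Fibroblast clocks are known to run alongside rhythms in the cell cycle, in secretion and collagen export, and in inflammatory signalling, and those gene groups are described after the clock itself.

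Every probe that was no control entered the comparison, 39429 in all. A level is the log2 signal of a probe minus the 75th percentile of its array, and a ratio is the level at 20 h minus that at 32 h, so a positive ratio marks a higher signal at 20 h. A ratio was measured for the 20247 probes (51.4%) that rose well clear of background at both hours, with 12712 genes represented by their brightest probe. Another 1503 probes were well above background only at 20 h and 515 only at 32 h, and for these a bound was taken in place of a ratio. A probe whose mean level over both arrays was 0 or more was called bright, which applied to 9857 probes. The error printed with a ratio comes from the scanner software's estimate for the spots, near 0.20 for bright probes, and does not cover differences between cultures.

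The transcriptomes at 20 h and 32 h were close to each other. Of the bright probes, 94.4% lay within 1.2-fold, the SD of their ratios was 0.14, and the largest difference was 2.32-fold. At least 1.5-fold separated 50 bright probes (0.507%), 15 higher at 20 h (0.152%) and 35 higher at 32 h (0.355%). Over all measured probes 494 (2.44%) passed 1.5-fold, 145 higher at 20 h (0.716%) and 349 higher at 32 h (1.72%), and most of these were dim. The split depended on the scaling between arrays. Without scaling, which moved the median of all ratios by 0.15, the counts were 348 and 208 for measured and 35 and 15 for bright probes, with spike-in controls less 1 outlying probe they were 206 and 263 and 19 and 25, and with the array median as the unit 207 and 262 and 190 and 225, many more probes being bright by that unit. Counted by gene, 77 (0.606%) were at least 1.5-fold higher at 20 h and 227 (1.79%) at 32 h. At 1.2-fold, a limit added after the values were seen, the shares of genes were 5.33% at 20 h and 7.5% at 32 h, and by any amount 50.8% and 49.2%.

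**Figure D1:**
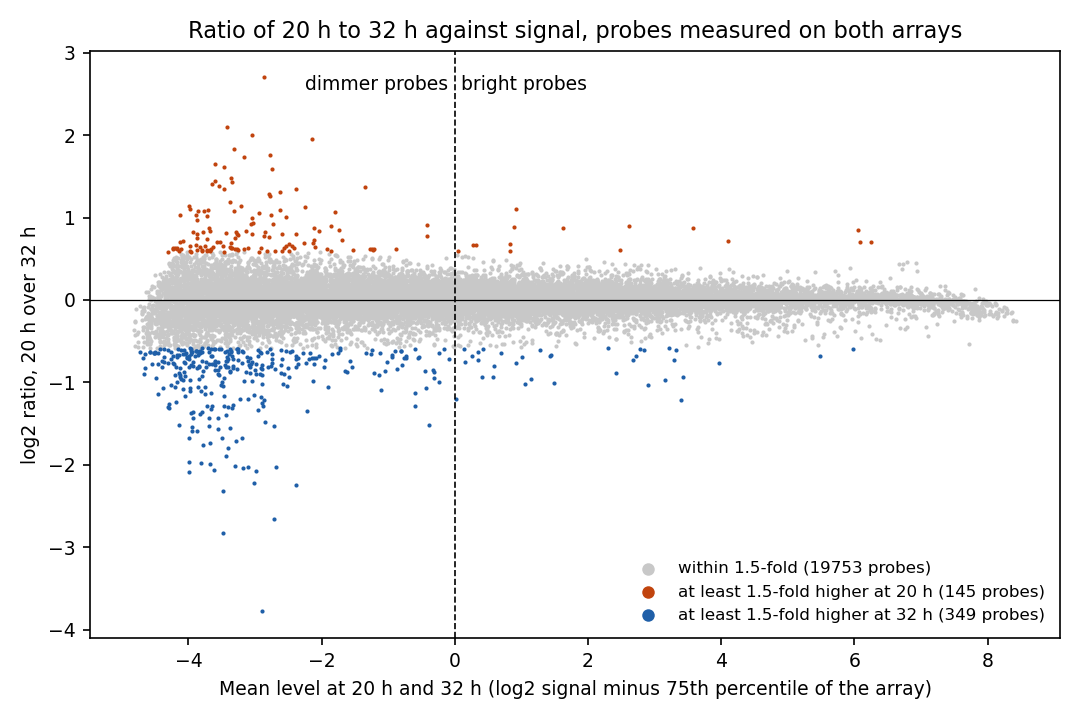
Log2 ratio of 20 h over 32 h (y axis) against the mean level on both arrays (x axis, log2 signal minus the 75th percentile of the array) for 20247 measured probes, 1 point per probe. Probes at least 1.5-fold higher at 20 h (145) are red and those higher at 32 h (349) blue, the dashed line at 0 marks the limit for bright probes, and the points fan out towards dim signals on the left.

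Probes of the same gene gave a check within the arrays. In 3594 genes with another measured probe, the ratio of the other probe had the same sign in 64.5%, with Pearson's r of 0.34 and Spearman's rho of 0.40 across genes, which are no independent replicates and share the 2 arrays. Where both probes were bright (1171 genes) the signs were the same in 70.5%, with r of 0.64 and rho of 0.55. Where in addition the brightest probe passed 1.2-fold, 61 of 66 genes had the same sign on the other probe, and at 1.5-fold 4 of 4. The other probe itself passed 1.2-fold in the same direction in 31 of the 66. Bright or dim, 35 genes had a brightest probe past 1.5-fold. In 31 of these the other probe had the same sign, and in 11 it passed 1.5-fold as well. The difference between the 2 probes had an SD of 0.12 for bright pairs and 0.24 for all pairs. Over 16 blocks of the array surface the median ratio ran from -0.0061 to 0.019, over sixths of probe GC content from -0.018 to 0.021, and over eighths of signal from -0.044 to 0.020. The spread was less even over the surface. The share of measured probes past 1.5-fold ran from 1.01% to 4.56% over the blocks, and the SD of the ratios from 0.18 to 0.30. The cause of this was not tested.

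The fibroblast label was checked first. Of 13 fibroblast markers 11 were measured, among them *Dcn* at a level of 8.25 at 20 h and 8.50 at 32 h, *Col1a2* at 6.74 and 6.94, and *Vim* at 6.77 and 6.61, while *Postn* and *Fap* were not well above background on either array. Of the markers of other cells, 6 of 16 keratinocyte and epithelial genes, 8 of 16 immune genes, 3 of 17 neuron and muscle genes and 5 of 13 endothelial and adipocyte genes were measured. Of these lists, *Epcam*, *Cdh1*, *Ptprc*, *Myod1*, *Gfap*, *Tek* and *Adipoq* were among the markers not well above background at 20 h or 32 h. Others were, on their brightest probes, with levels at 20 h and 32 h of 3.42 and 3.47 for the myeloid integrin *Itgam*, 0.88 and 0.90 for *Cd4*, 2.92 and 3.03 for the synaptic gene *Snap25* and 2.01 and 1.99 for the VEGF receptor gene *Kdr*. Lower but also well above background at both hours were *Csf1r* (-0.06 and 0.14), *Nkg7* (-0.03 and 0.04) and *Krt8* (-0.52 and -0.61). The same held for *Cd3e* (-0.72 and -0.70), *Cd68* (-1.13 and -1.06) and *Pecam1* (-3.57 and -3.47). For *Itgam*, *Cd4*, *Kdr*, *Csf1r* and *Nkg7* another probe was not well above background at either hour, and a further *Itgam* probe read -4.63 and -4.35. The 8 measured immune genes had ratios from -0.21 to 0.07, the neural gene *Tubb3* 0.31, and the endothelial and adipocyte genes from -0.22 to 0.02 apart from *Lpl*, described with the bright genes. Among the keratinocyte markers, *Casp14* and *Prr9* were 4.0-fold and 3.89-fold higher at 20 h on dim probes, whereas the other 4 measured members had ratios from -0.22 to 0.18.

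Within the clock, *Arntl* and *Dbp* stood at opposite sides. The level of *Arntl*, which encodes BMAL1, was -0.08 in the control, 1.0 at 4 h, -0.75 at 20 h and 0.10 at 32 h, so that it was 1.80-fold lower at 20 h than at 32 h (log2 ratio -0.85 ± 0.21). For *Dbp*, a D-box activator driven through E-boxes (chromosome 7, 52965322 to 52965381, mm9), the brighter probe read -0.05, -1.39, 0.65 and -0.02 in the same order, which is 1.59-fold higher at 20 h (0.66 ± 0.20), and the other probe gave the same ratio of 0.66. *Arntl* was lowest of the 4 arrays at 20 h, and *Dbp* was highest there. The 2 genes also moved oppositely at 4 h, with *Arntl* above its control level and *Dbp* below it.

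Other E-box and D-box targets followed *Dbp* to a smaller extent or not at all. *Tef*, another PAR bZIP factor, had levels of 2.96 in the control, 3.26 at 4 h, 3.11 at 20 h and 2.69 at 32 h, a ratio of 0.42 ± 0.20. *Nr1d2*, which encodes the repressor REV-ERB-beta, stood at 0.68, 1.56, 1.05 and 0.67, a ratio of 0.38 ± 0.20, and its other probe gave 0.39. Both were thus higher at 20 h, by 1.34-fold and 1.30-fold. *Hlf*, the remaining PAR bZIP gene, went the other way, from -0.91 at 20 h to -0.57 at 32 h (-0.34 ± 0.21), after a level of -2.55 at 4 h that lay below the control at -0.85. *Bhlhe40*, a repressor at E-boxes, had a ratio of -0.28 ± 0.22, *Per1* 0.17 ± 0.20, *Wee1* 0.19 ± 0.21, *Nr1d1* 0.05 ± 0.23, *Usp2* 0.02 ± 0.21 and *Cry2* 0.04 ± 0.20 on its brighter and -0.10 ± 0.21 on its dimmer probe. Of *Bhlhe40*, *Per1*, *Wee1*, *Nr1d1*, *Usp2* and *Cry2*, only *Bhlhe40* differed by more than the error of its spot.

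*Per2*, *Per3* and *Cry1* were dim, whereas the brightest probes of *Per1* and *Cry2* were bright. *Per2* was well above background at 20 h (level -4.65) and not at 32 h (-5.40), which makes it at least 1.06-fold higher at 20 h, and *Cry1* (-4.58 and -5.13) was likewise at least 1.11-fold higher. *Per3* had a ratio of -0.25 ± 0.43 at a level near the detection limit. An additional probe of *Per1* was well above background only at 32 h (level -4.09 against -6.58), at least 2.03-fold higher there, in disagreement with the bright probe of that gene. *Bhlhe41* and *Ciart* were not well above background on either array. Over the 16 E-box and D-box targets, 11 were measured, and 8 had a positive and 3 a negative ratio, beside 50.8% and 49.2% of all measured genes. The median ratio was 0.05 beside 0.00 for all measured genes. Past 1.5-fold at 20 h was 1 (*Dbp*), beside 0.606% of all genes.

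Of the 7 genes for BMAL1, CLOCK and other factors tied to ROREs, 5 were measured, and apart from *Arntl* they were nearly level. *Clock*, the partner of BMAL1, had levels of 0.08 at 20 h and 0.13 at 32 h (-0.04 ± 0.20), and *Arntl2* -1.21 and -1.17 (-0.04 ± 0.21). *Nfil3*, the D-box repressor E4BP4, stood at 2.69 in the control, 3.30 at 4 h, 3.70 at 20 h and 3.84 at 32 h (-0.14 ± 0.20), and *Rora* at -2.14 and -2.23 (0.09 ± 0.22). Only 1 of the 5, *Arntl*, passed 1.5-fold at 32 h, where the background share is 1.79%. *Npas2* and *Rorb* were not well above background on either array.

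The genes listed as clock kinases, ubiquitin ligases and cofactors differed little where measured at both hours. Of the 21 names on this list 17 were measured, with 9 positive and 8 negative ratios, near the 50.8% and 49.2% of all measured genes. The median was 0.04 and none reached 1.5-fold. The CK2 subunits *Csnk2a1*, *Csnk2a2* and *Csnk2b* had ratios of 0.18, 0.06 and 0.19, each ± 0.20, and further probes of *Csnk2a1* gave -0.09 to 0.05. The CK1 genes *Csnk1d* and *Csnk1e* had -0.05 and -0.00 on their brightest probes, *Gsk3b* -0.01, *Fbxw11* -0.07, *Btrc* -0.26 and *Prkaa1* -0.12. *Nono* had 0.08, *Sirt1* 0.16, *Etv6* 0.07, *Klf9* 0.04 and *Klf10* -0.20. *Id2*, an inhibitor of basic helix-loop-helix factors, had the largest ratio of the list, 0.36 ± 0.20, with levels of 1.49, 2.33, 0.63 and 0.27 in the control, at 4 h, 20 h and 32 h. *Timeless*, which also serves DNA replication, came next with 0.32 ± 0.20 (other probe 0.18 ± 0.22). *Ppp1r3c*, a glycogen-targeting subunit of protein phosphatase, was well above background only at 32 h (level -2.49 against -7.21), at least 6.15-fold higher there, and *Fbxl21* and *Prkaa2* were not well above background on either array.

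**Figure D2:**
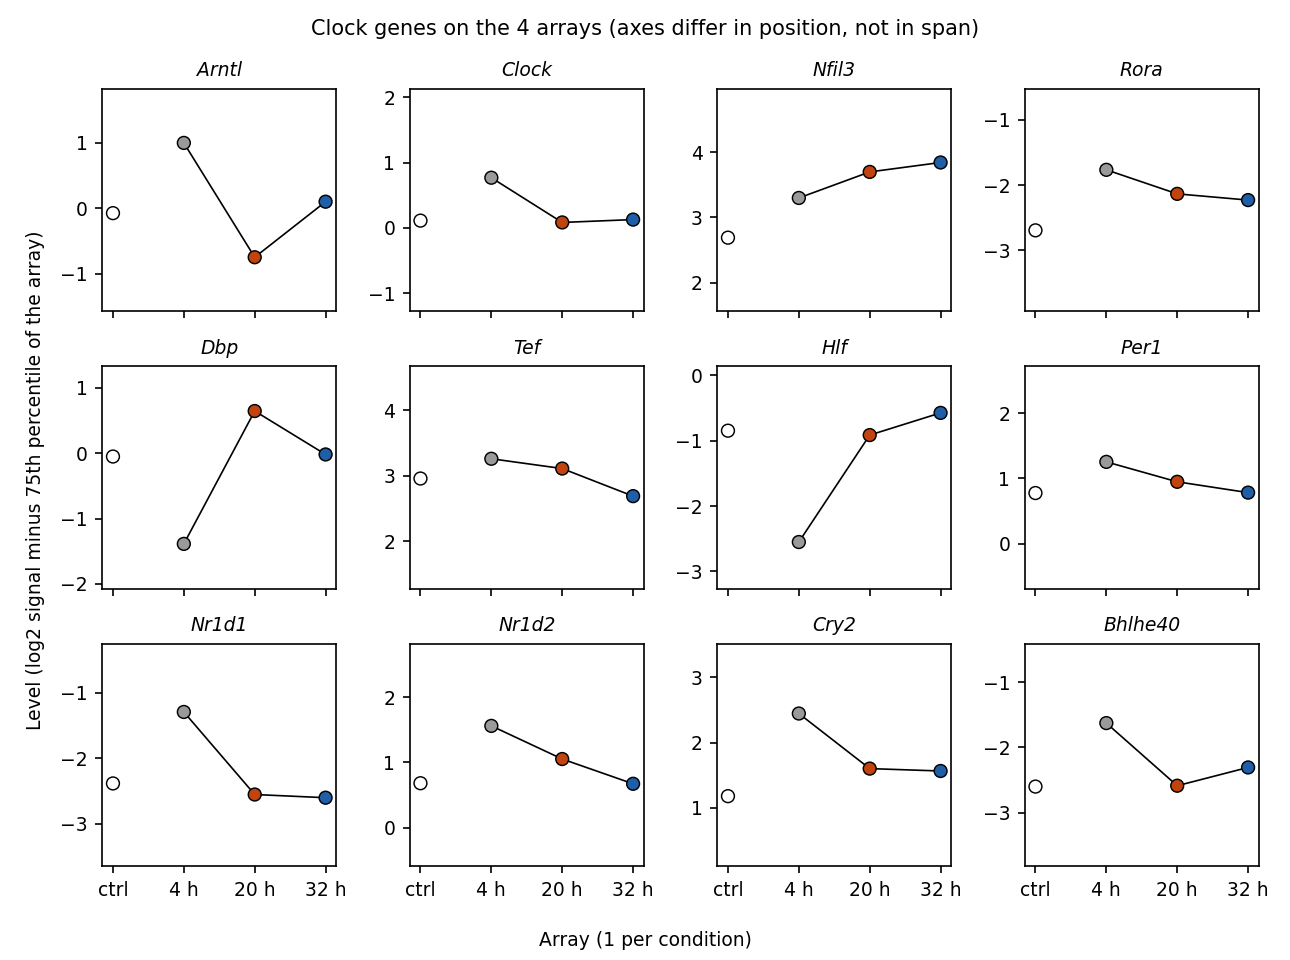
Levels (y axis, log2 signal minus the 75th percentile of the array) of 12 clock genes on the 4 arrays (x axis, 1 array each, open for the control, red for 20 h, blue for 32 h), brightest probe of each gene. Every panel spans the same range, *Arntl* goes from -0.75 to 0.10 between 20 h and 32 h while *Dbp* goes from 0.65 to -0.02, and *Clock* and *Nr1d1* stay level.

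Short clock motifs were looked for on both strands of promoter windows, from 250 bases before to 50 after each RefSeq start (GRCm38.p6). The E-box CACGTG occurred in 2 of the 9 measured E-box and D-box targets with a window (22.2%), against 11.6% of all measured genes, and the RORE core TAGGTCA in 2 of the 5 measured genes of the *Arntl* and *Clock* list, against 2.34% of all measured genes. *Tef* and *Per1* were the targets that held the E-box. A window of *Tef* is shown (chr15:81802423-81802672, + strand, 250 bases ending at the start) as an example of the match, with the E-box in capitals, and the window of its other start holds 1 E-box as well.
Tef: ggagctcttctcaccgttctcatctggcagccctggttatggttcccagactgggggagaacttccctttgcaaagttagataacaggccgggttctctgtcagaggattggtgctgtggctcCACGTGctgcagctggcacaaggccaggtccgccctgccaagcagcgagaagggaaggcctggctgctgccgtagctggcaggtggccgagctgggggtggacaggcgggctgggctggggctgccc

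Mitosis genes were higher at 20 h. All 32 measured genes of the G2/M and mitosis list (of 35) had a positive ratio, their median was 0.38 (1.30-fold) beside 0.00 for all measured genes, and 25 of 32 passed 1.2-fold, where the background share is 5.33%. Ratios ran from 0.03 for *Cenpa*, the centromeric histone, to 0.61 for *Kif11*, a spindle motor and the only member past 1.5-fold. *Kif11* had levels of -1.12 in the control, -3.23 at 4 h, -1.23 at 20 h and -1.84 at 32 h (0.61 ± 0.21). *Plk1*, the polo-like mitotic kinase, stood at 2.22, -1.01, 2.22 and 1.72 (0.50 ± 0.20), and *Top2a*, which untangles sister chromatids, at 0.56, -0.80, 0.53 and 0.02 (0.51 ± 0.20). In each of the 3 the 20 h level was within 0.15 of the control, the 4 h level was the lowest, and 32 h lay between. *Bub1*, a spindle checkpoint kinase, had 0.53 ± 0.21 and *Ect2*, a driver of cytokinesis, 0.53 ± 0.20. Another measured probe existed for 9 members, 8 of them in the same direction, with a median of 0.37. *Aspm* and *Kif20b*, mitotic genes outside the list, were among the 15 leading bright genes at 20 h with 0.59 each.

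DNA replication and G1/S genes had a smaller difference of the same sign. Of 32 measured (of 33), 29 had a positive ratio, the median was 0.21 (1.15-fold) and 8 passed 1.2-fold, beside 50.8% and 5.33% of all genes. The catalytic polymerase genes *Pola1* and *Pold1* led with 0.51 ± 0.21 and 0.43 ± 0.20, followed by the primase *Prim1* with 0.42 ± 0.20. *Pold1* had levels of 1.13 in the control, -0.57 at 4 h, 1.06 at 20 h and 0.63 at 32 h. The 3 members with a negative ratio were *Tyms* (-0.17), *E2f1* (-0.10) and *Ccne1* (-0.05), which encode thymidylate synthase, an S-phase transcription factor and cyclin E1. Against the control, the median of the G2/M list was -1.60 at 4 h (30 genes), -0.09 at 20 h and -0.46 at 32 h, and that of the replication list -0.98, -0.24 and -0.43. G1 cyclins and CDK inhibitors, 14 of 17 measured, had a median of 0.05 and 1 past 1.2-fold.

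Histone genes, which are transcribed mainly in S phase, were split. Of 11 measured (of 18), 7 had a positive and 4 a negative ratio, beside 50.8% and 49.2% of all measured genes, with a median of 0.14. The linker histone *Hist1h1b* stood at 1.91 in the control, 0.94 at 4 h, 2.06 at 20 h and 1.19 at 32 h, 1.83-fold higher at 20 h (0.87 ± 0.20), and *Hist1h2ab* at 3.95, 3.53, 4.00 and 3.13 (0.87 ± 0.20). *Hist1h2ak*, *Hist1h2an*, *Hist1h2ag* and *Hist2h3b* were also among the 15 leading bright genes at 20 h, with 0.90 (other probe 0.43), 0.70, 0.70 and 0.53. These genes are near-identical copies whose probes can share targets, so they are not separate observations. On the other side, *Hist1h1a* was 2.09-fold higher at 32 h on a dim probe (-1.06 ± 0.32), and *Hist1h1c* and *Hist1h2bc* had -0.52 each.

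Promoter windows of the G2/M list held the CCAAT box CCAAT in 23 of 29 genes with a window (79.3%, against 43.2% of all measured genes) and the CHR letters TTTGAA, the core of the cell cycle genes homology region, in 19 of 29 (65.5%, against 14.7%). The 250 bases before the start are shown for the leading member *Kif11* (chr19:37376132-37376381, + strand) and for *Top2a* (chr11:99024190-99024439, - strand), with CHR and CCAAT letters of either strand in capitals.
Kif11: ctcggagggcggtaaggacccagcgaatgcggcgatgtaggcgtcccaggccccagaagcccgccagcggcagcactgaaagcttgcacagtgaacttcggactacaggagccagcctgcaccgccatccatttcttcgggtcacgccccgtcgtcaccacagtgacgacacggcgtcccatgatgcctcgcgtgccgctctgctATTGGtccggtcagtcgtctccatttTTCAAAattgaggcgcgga
Top2a: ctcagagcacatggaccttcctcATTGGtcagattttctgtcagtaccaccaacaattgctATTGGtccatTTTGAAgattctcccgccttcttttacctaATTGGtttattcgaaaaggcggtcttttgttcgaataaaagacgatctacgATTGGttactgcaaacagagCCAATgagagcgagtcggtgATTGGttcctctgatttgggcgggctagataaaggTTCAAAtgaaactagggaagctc
*Kif11* holds 1 CHR and 1 CCAAT box, and *Top2a* 2 and 6, and CCAAT is ATTGG and TTTGAA is TTCAAA where the match lies on the other strand. Of the 15 leading bright genes at 20 h, 12 had a window, and 10 of these (83.3%) held a CCAAT box, against 43.2% of all measured genes. The 15 were picked by their ratios and include histone genes whose probes can share targets, so they are not separate observations.

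At 32 h the endoplasmic reticulum was the group in which every member was higher. All 22 measured genes of ER chaperones and the unfolded protein response (of 22) had a negative ratio, from -0.12 to -0.54, the median was -0.27, and 12 passed 1.2-fold at 32 h, where the background share is 7.5%. No member reached 1.5-fold, and those named here were chosen after their values were seen. *Hspa5*, which encodes the chaperone BiP, had levels of 5.87 in the control, 7.24 at 4 h, 5.52 at 20 h and 5.95 at 32 h (-0.43 ± 0.20). *Sdf2l1*, a partner of BiP, stood at 0.02, 0.44, -0.08 and 0.46 (-0.54 ± 0.20), and *Manf*, a secreted ER stress protein, at 2.85, 3.76, 2.62 and 3.09 (-0.47 ± 0.20). In all 3 the 20 h level was the lowest of the 4 arrays. *Pdia6*, a disulfide isomerase, had -0.42 ± 0.20 on its brightest and -0.68 ± 0.20 on its other probe, and *Xbp1*, a transcription factor of the response, -0.39 ± 0.20. Another measured probe existed for 5 members, all 5 with a negative ratio and with a median of -0.39. Relative to the control the list had medians of 0.54 at 4 h, -0.11 at 20 h and 0.17 at 32 h.

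The ER stress response element, searched as CCAAT and CCACG with 9 bases of any kind between them, was present in the windows of 8 of 19 members (42.1%) and of 15 of the 9772 measured genes with a window (0.154%). The list was made of genes of this response, so the share does not bear on the difference between 20 h and 32 h. The upstream 250 bases of *Hspa5* (chr2:34771840-34772089, + strand) and *Pdia6* (chr12:17266339-17266588, + strand) are printed as 2 members that hold it. Capitals mark the whole element, within which the CCAAT letters overlap the CCAAT box, and further CCAAT boxes of either strand.
Hspa5: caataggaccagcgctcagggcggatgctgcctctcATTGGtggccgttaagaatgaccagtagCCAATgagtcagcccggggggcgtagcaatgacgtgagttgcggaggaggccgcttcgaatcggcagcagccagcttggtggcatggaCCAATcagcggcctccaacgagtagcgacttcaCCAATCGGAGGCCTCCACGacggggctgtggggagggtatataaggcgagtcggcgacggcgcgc
Pdia6: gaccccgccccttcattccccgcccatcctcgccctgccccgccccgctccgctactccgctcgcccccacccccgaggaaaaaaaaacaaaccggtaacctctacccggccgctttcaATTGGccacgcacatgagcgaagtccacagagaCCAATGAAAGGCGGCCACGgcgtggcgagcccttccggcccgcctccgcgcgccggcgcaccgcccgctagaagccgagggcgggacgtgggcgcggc
Chaperones of the cytosol lay near 0 as a group. Heat shock proteins and HSF1 targets, 20 of 22 measured, had a median of -0.00 and none past 1.2-fold, from *Hspa8* at -0.17 to *Dnajb4* at 0.18. Their ratios were positive in 9 and negative in 11, beside 50.8% and 49.2% of all measured genes. Proteasome subunits (31 of 31) had a median of -0.00, and ATF4 targets (21 of 23) -0.05, with *Chac1*, *Nupr1* and *Ddit3* at -0.53, -0.39 and -0.33.

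Lipid synthesis genes were likewise higher at 32 h. Of 24 measured cholesterol synthesis genes (of 25), 23 had a negative ratio, the median was -0.29 (1.22-fold) and 15 passed 1.2-fold, beside 49.2% and 7.5% of all genes. *Tm7sf2*, a sterol reductase, was the only member past 1.5-fold, with levels of 0.59 in the control, 1.96 at 4 h, 2.67 at 20 h and 3.64 at 32 h (-0.97 ± 0.20) and -0.94 on its other probe. *Hmgcs1*, which makes HMG-CoA, stood at 2.77, 2.48, 4.16 and 4.50 (-0.34 ± 0.20), and *Nsdhl*, another sterol enzyme, at -0.03, 0.04, 0.90 and 1.42 (-0.52 ± 0.20, other probe -0.51). These levels were above the control at 20 h and higher still at 32 h, and the list median relative to the control was 0.44 at 4 h, 1.13 at 20 h and 1.43 at 32 h. *Srebf2*, the transcription factor of the group, was the exception with 0.26 ± 0.21 (other probe -0.05 ± 0.25). Fatty acid synthesis and desaturation genes, 17 of 17 measured, had a median of -0.20, with 12 negative ratios and 6 past 1.2-fold (7.5% of all genes), led by *Elovl6* (-0.45) and *Scd1* (-0.40). A CCAAT box was present in 16 of 17 windows of the cholesterol list (94.1%, against 43.2% of all measured genes) and the sterol element TCACNCCAC in 1 of 17 (5.88%, against 1.43% of all measured genes).

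NF-kappa-B targets, cytokines and chemokines had the most negative median of all lists, -0.34 (1.27-fold). Of 22 measured (of 27), 20 had a negative ratio, 13 passed 1.2-fold and 4 passed 1.5-fold, where the background shares are 7.5% and 1.79%. *Lcn2*, the secreted iron-siderophore binder lipocalin-2, had levels of -0.81 in the control, -0.58 at 4 h, -1.25 at 20 h and 0.04 at 32 h, 2.44-fold higher at 32 h (-1.29 ± 0.21). *Vcam1*, a leukocyte adhesion molecule, stood at 3.86, 5.06, 2.97 and 3.90 (-0.93 ± 0.20, other probe -1.09). *Lif*, a cytokine of the interleukin-6 family, had -0.71 ± 0.23, and *Tnfaip3*, which encodes the NF-kappa-B inhibitor A20, -0.60 ± 0.20. Both lay below the bright limit, with mean levels of -2.74 and -0.16. *Vcam1* and *Lcn2* were thus lowest at 20 h of all 4 arrays, and *Vcam1* at 32 h was near the control. Below 1.5-fold, and chosen after their values were seen, *Il6* had -0.55, the acute phase gene *Saa3* -0.54, *Ptgs2* -0.40 and *Cxcl1* -0.39, while *Cxcl10* and *Tnfrsf11b* were positive with 0.13 and 0.18. The list median relative to the control was 0.61 at 4 h, -0.50 at 20 h and -0.10 at 32 h.

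The kappa-B letters, searched as GGG and TTTCC with 2 bases of any kind between them, occurred in 6 of 14 windows of this list (42.9%) against 1.99% of all measured genes. The list was made of NF-kappa-B targets, so this share does not bear on the difference between 20 h and 32 h. Windows of *Il6* (chr5:30012864-30013113, + strand) and *Cxcl1* (chr5:90890995-90891244, + strand), the 250 bases before the start, are given as 2 cytokine genes with the match, which is in capitals and reads GGAAA and then CCC where it lies on the other strand.
Il6: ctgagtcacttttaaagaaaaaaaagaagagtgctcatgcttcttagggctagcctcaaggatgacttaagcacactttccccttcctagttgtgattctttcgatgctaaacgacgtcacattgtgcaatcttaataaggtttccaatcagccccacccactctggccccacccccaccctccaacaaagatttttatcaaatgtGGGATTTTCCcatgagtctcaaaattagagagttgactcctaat
Cxcl1: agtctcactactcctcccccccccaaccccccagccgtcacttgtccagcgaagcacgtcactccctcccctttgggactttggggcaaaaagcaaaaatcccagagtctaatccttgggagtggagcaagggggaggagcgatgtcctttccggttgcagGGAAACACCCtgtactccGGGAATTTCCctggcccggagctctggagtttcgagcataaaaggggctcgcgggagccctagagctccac
Interferon-stimulated genes, another inflammatory group, had a median of -0.07 over 17 measured of 25. Past 1.5-fold at 32 h was 1, the dim *Usp18* (-0.72 ± 0.25), beside 1.79% of all genes. Immediate early genes, 21 of 26 measured, had a median of -0.01. Of them 1 passed 1.2-fold at 20 h and 4 at 32 h, beside 5.33% and 7.5% of all genes.

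Collagen and matrix genes were mostly higher at 32 h. Of 14 measured collagen chains (of 18), 12 had a negative ratio, with a median of -0.31 (1.24-fold) and 8 past 1.2-fold at 32 h, beside 7.5% of all genes. *Col1a1*, the main chain of type I collagen, had levels of 4.26 in the control, 3.55 at 4 h, 3.20 at 20 h and 3.75 at 32 h (-0.55 ± 0.20), and *Col1a2*, the other chain of the same trimer, had -0.20. *Col7a1*, anchoring fibril collagen, had -0.82 ± 0.22 on a dim probe, with a level of 1.53 at 4 h, above its -2.20 in the control. *Col5a2* lay far on the other side, 2.79-fold higher at 20 h (1.48 ± 0.31) on 1 dim probe. Matrix proteins and crosslinking enzymes, 20 of 28 measured, had a median of -0.21. Of them 2 passed 1.5-fold at 32 h, beside 1.79% of all genes, *Fbn1* (fibrillin-1, -0.89 ± 0.22) and *Tnc* (tenascin-C, -0.67 ± 0.21, other probe -0.41). Both lay below the bright limit, with mean levels of -2.57 and -0.94. In the eighth of signal that holds *Fbn1*, 5.14% of probes passed 1.5-fold either way. *Fn1*, the fibronectin gene, had 0.24 instead, and matrix proteases and inhibitors (21 of 24) had a median of -0.11, positive without scaling, with *Mmp9* past 1.5-fold on a dim probe (-0.76 ± 0.39). The fibroblast markers had 9 of 11 negative ratios, beside 49.2% of all genes, and a median of -0.23. Of these markers, *Col1a1*, *Col1a2*, *Col3a1*, *Fn1*, *Dcn* and *Lum* are the same probes as in the collagen and matrix lists. Lowest were *Col1a1*, *Thy1* (-0.52) and *Lum* (-0.49).

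Of the groups described above, 6 are given with their range over all alternatives, under none of which the sign turned. Medians lay from 0.32 to 0.53 for the G2/M list, 0.19 to 0.36 for replication, -0.28 to -0.11 for the ER list, -0.30 to -0.13 for cholesterol synthesis, -0.39 to -0.19 for the NF-kappa-B list and -0.32 to -0.15 for collagen chains. List medians from -0.14 to 0, by contrast, became positive without scaling, and no direction is given for them.

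**Figure D3:**
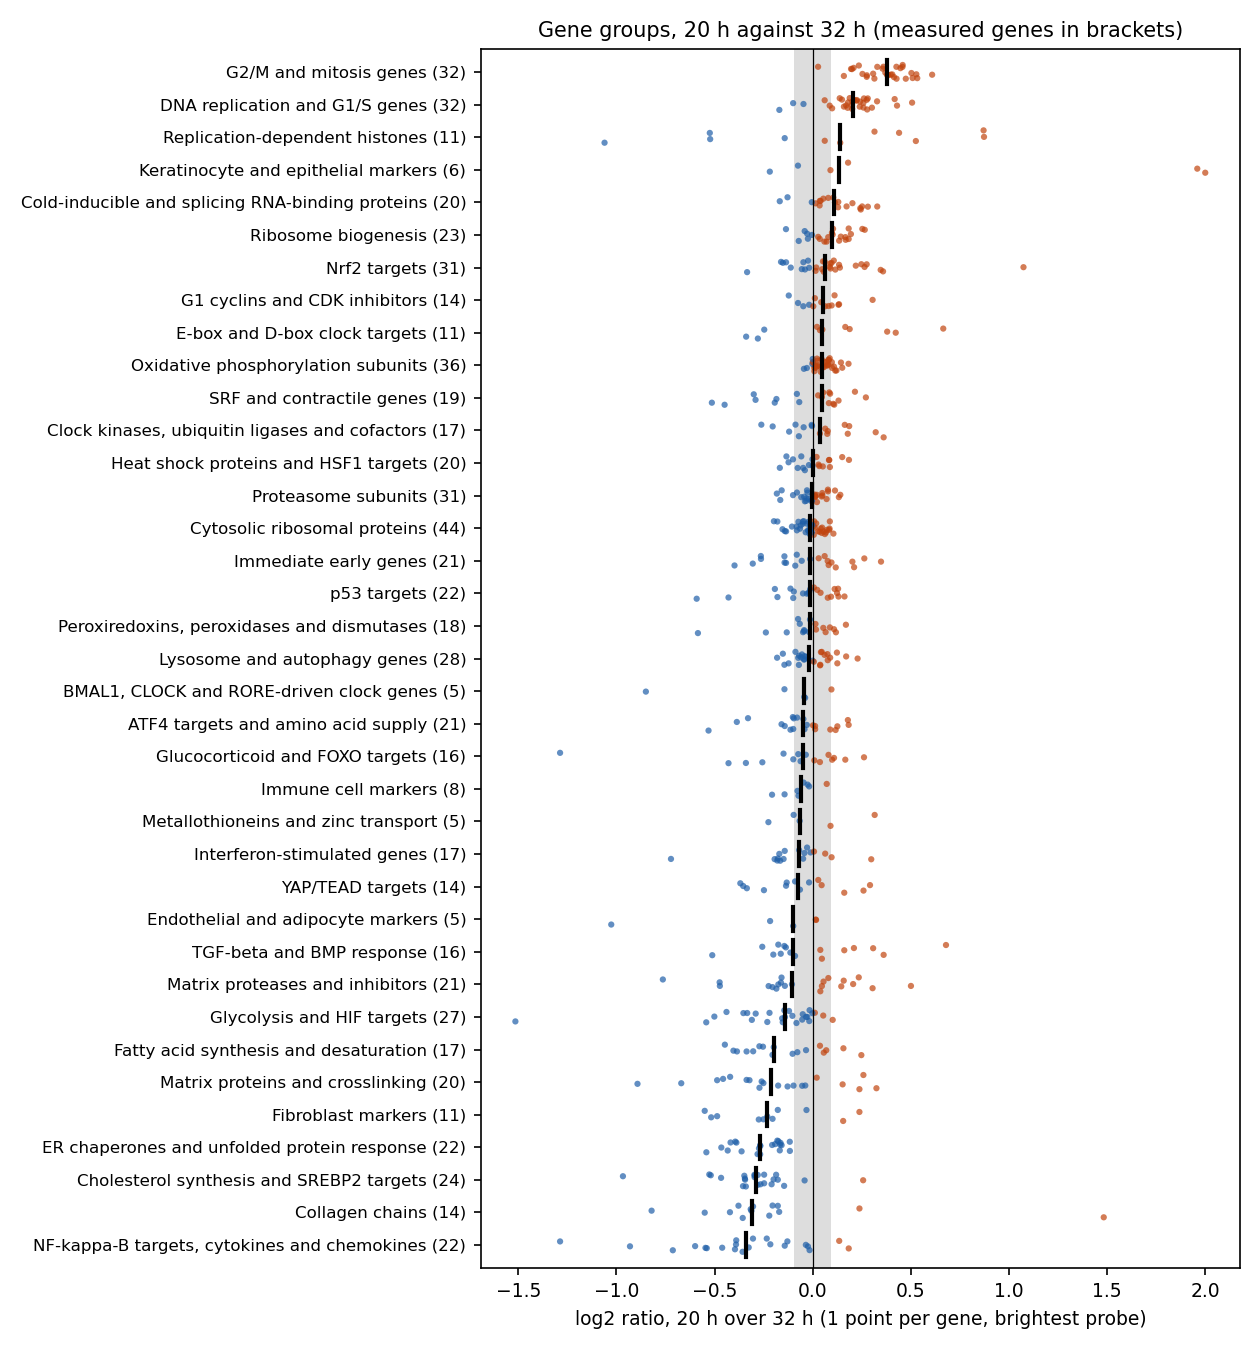
Log2 ratio of 20 h over 32 h (x axis) for the measured genes of 37 gene groups (y axis, sorted by their median, number of genes in brackets), 1 point per gene, red above and blue below 0, with a black bar at the median. The grey band holds the middle quartiles of all 12712 measured genes, from -0.09 to 0.09, and the G2/M list (0.38) and the NF-kappa-B list (-0.34) mark the extremes, while the negative medians of glycolysis and HIF targets, TGF-beta and BMP response and matrix proteases turn positive without scaling.

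Metabolic and redox groups differed less. Of all measured genes, 50.8% had a positive and 49.2% a negative ratio. Glycolysis and HIF targets, 27 of 30 measured, had a median of -0.14, which turned to 0.01 without scaling, and 24 negative ratios. *Adm*, the vasodilator adrenomedullin, was the leader with levels of 0.97 in the control, 1.40 at 4 h, -1.14 at 20 h and 0.38 at 32 h, 2.86-fold higher at 32 h (-1.51 ± 0.21). *Vegfa* had -0.50 ± 0.20 on both probes. Oxidative phosphorylation subunits were shifted by little but in 1 direction, 32 of 36 positive with a median of 0.05 and a range from -0.05 to 0.18. Ribosome biogenesis genes had a median of 0.10 (17 of 23 positive), and splicing and cold-inducible RNA-binding proteins 0.11 (17 of 20 positive, *Srsf2* at 0.33). Cytosolic ribosomal proteins (44 of 44) had -0.01 and lysosome and autophagy genes (28 of 28) -0.02.

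Antioxidant genes differed little as a group. Of all measured genes, 50.8% had a positive ratio, and 0.606% passed 1.5-fold at 20 h and 1.79% at 32 h. Of 31 measured Nrf2 targets (of 35) 21 were positive, the median was 0.06, and on the brightest probes only *Nqo1*, a quinone reductase, passed 1.5-fold, with levels of -1.29 in the control, -1.15 at 4 h, -1.26 at 20 h and -2.33 at 32 h (1.07 ± 0.21). Its probe lay below the bright limit, and its 32 h level was the one that departed from the other 3 arrays. *Hmox1*, the heme oxygenase with a level of 5.31 at 4 h against 2.02 in the control, had 0.09 on its brighter probe and -0.15 on the other. The glutathione transferases ranged from *Gsta4*, *Gstm1* and *Gstp1* with 0.36, 0.27 and 0.26 over *Gstm3* with 0.09 to *Gstm2* with -0.02 and *Mgst1* with -0.04. *Gsta3*, of the same family, was well above background only at 20 h (level -3.87 against -6.94), at least 1.81-fold higher there. Its other probe, also detected only at 20 h, read -4.90 and -5.12 and gave no bound. *Gstm4* is described with the dim probes. Peroxiredoxins, peroxidases and dismutases (18 of 19) had a median of -0.02, with the extracellular dismutase *Sod3* at -0.59 ± 0.20 as the 1 member past 1.5-fold. Metallothioneins and zinc transporters (5 of 5) had -0.07.

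Among signalling groups, the BMP targets *Id1*, *Id3* and *Id2*, inhibitors of differentiation, were higher at 20 h. *Id1* had levels of 2.77 in the control, 2.64 at 4 h, 1.17 at 20 h and 0.49 at 32 h, 1.6-fold higher at 20 h (0.68 ± 0.20), and *Id3* 2.91, 2.75, 1.5 and 1.19 (0.31 ± 0.20). All 3 were below the control at both hours and lowest at 32 h. *Tgfb2*, a ligand of the sister pathway, had -0.51, and the list of TGF-beta and BMP response genes (16 of 20) had a median of -0.10, positive without scaling. In p53 targets (22 of 25) the median was -0.02. The death receptor gene *Fas* was the 1 member past 1.5-fold (-0.59 ± 0.20), beside 1.79% of all genes at 32 h. SRF and contractile genes (19 of 22) had a median of 0.05, YAP/TEAD targets (14 of 16) -0.08, and glucocorticoid and FOXO targets (16 of 18) -0.05, with *Lcn2* again past 1.5-fold.

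**Figure D4:**
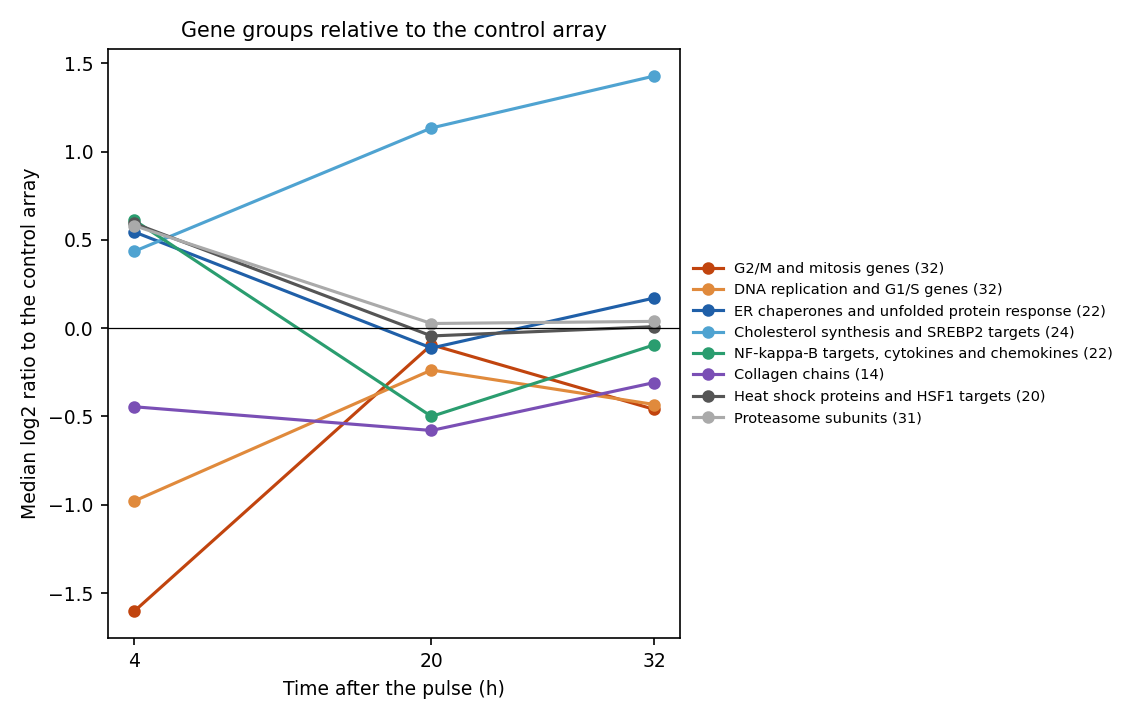
Median log2 ratio to the single control array, labelled 4 h (y axis), of 8 gene groups at 4 h, 20 h and 32 h (x axis), with the number of measured genes in brackets (at 4 h the G2/M list has 30). Between 20 h and 32 h the G2/M median goes from -0.09 to -0.46 and the replication median from -0.24 to -0.43, the ER, cholesterol, NF-kappa-B and collagen medians go up, and the heat shock and proteasome medians stay near 0.

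The bright genes furthest apart were led by *Hp* at 32 h. This gene for the hemoglobin-binding plasma protein haptoglobin (chromosome 8, 112099045 to 112099104) had levels of 4.38 in the control, 4.28 at 4 h, 2.79 at 20 h and 4.00 at 32 h, 2.32-fold higher at 32 h (-1.21 ± 0.20). *Lpl*, lipoprotein lipase (chromosome 8, 71430267 to 71430326), stood at 1.82, 1.68, 2.39 and 3.42 (-1.03 ± 0.20, other probe -0.87), and *Ifitm1*, an interferon-induced membrane protein, at 1.56, 2.29, 0.55 and 1.57 (-1.02 ± 0.20, other probe -0.96). *Hp* and *Ifitm1* thus dipped at 20 h below both the control and 32 h, whereas *Lpl* was above the control at 20 h and higher again at 32 h. *Angptl4*, an inhibitor of that lipase, had -0.73 ± 0.20, and the phosphodiesterase family gene *Gdpd2* -1.20 ± 0.20. The rest of the 15 were *Wfdc12* (-1.01), *Tm7sf2*, *Tmprss3* (-0.94), *Vcam1*, *Svep1* (-0.88), the NF-kappa-B signalling adaptor *Traf1* (-0.80), *Skint7* (-0.77, other probe -0.07), *Gstt4* (-0.75), the secreted glycoprotein *Fstl1* (-0.73) and the agouti gene *a* (-0.73, other probe -0.68).

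On the 20 h side the leader was *Akr1c18*, a steroid dehydrogenase that inactivates progesterone (chromosome 13, 4131895 to 4131954), with levels of 2.31 in the control, 1.19 at 4 h, 1.47 at 20 h and 0.36 at 32 h, 2.15-fold higher at 20 h (1.10 ± 0.20). It was the only bright probe past 2-fold at 20 h (0.0101%), against 5 at 32 h (0.0507%). *Actr3b*, an actin-related protein, stood at 3.60, 4.05, 4.45 and 3.74 (0.71 ± 0.20). *Gpr137b* had 0.61 ± 0.20 on its brightest probe and 0.18 to 0.42 on 3 others, and the basement membrane gene *Nid1* 0.54 ± 0.20 with 0.32 and 0.35 on 2 others. Together with 6 histone genes, *Id1*, *Dbp*, *Aspm*, *Kif20b* and *Ect2*, these make up the 15. None of the 12 with a promoter window, and none of the 11 on the 32 h side, held the E-box CACGTG, beside 11.6% of all measured genes with a window. Windows this few cannot tell a lack of the E-box from that share.

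**Figure D5:**
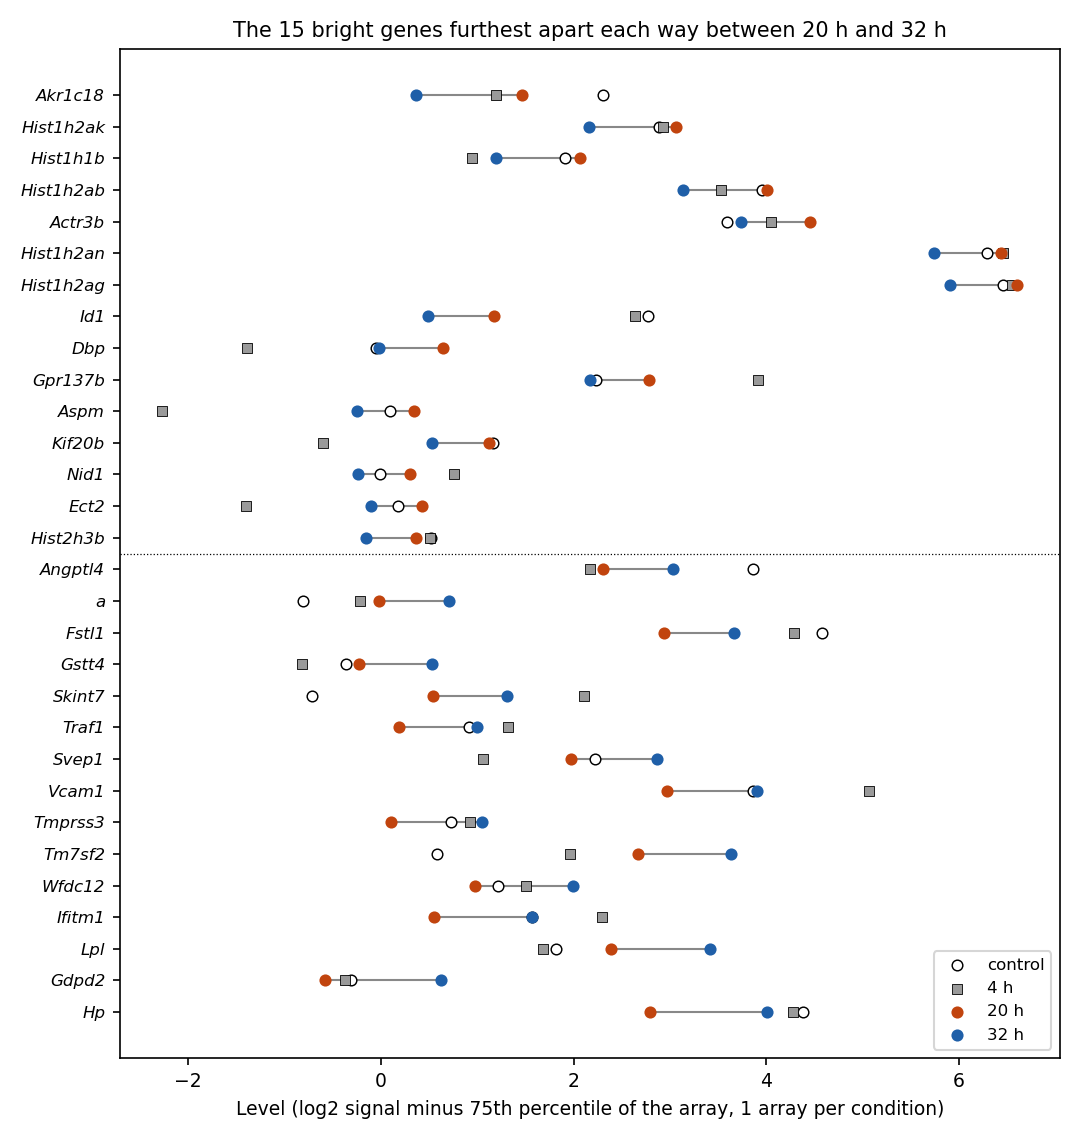
Levels (x axis, log2 signal minus the 75th percentile of the array) of the 15 bright genes furthest apart each way (y axis), with 1 point per array, open circles for the control, grey squares for 4 h, red for 20 h and blue for 32 h. Lines join 20 h and 32 h, from *Akr1c18* (1.10) at the top to *Hp* (-1.21) at the bottom, and the dotted line parts genes higher at 20 h from those higher at 32 h.

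Below the bright limit the differences were larger. The widest measured ones at 20 h were those of *Gstm4* (2.70 ± 0.35), *Wscd2* (2.10 ± 0.32), *Casp14* (2.0 ± 0.27), *Prr9* (1.96 ± 0.23) and *5033406O09Rik* (1.83 ± 0.30), and at 32 h those of *Gm9937* (-3.78 ± 0.34), *Spata9* (-2.83 ± 0.33), *Nbeal2* (-2.66 ± 0.27), *Cox7b2* (-2.32 ± 0.31) and *Gfra4* (-2.25 ± 0.24). The brightest probe of *Gstm4*, a glutathione transferase gene, did not share the difference, with -2.12 at 20 h and -2.23 at 32 h (0.11 ± 0.22), while its dim probe read -1.52 and -4.22. For 230 probes spotted 10 times the SD of the ratio of a single spot had a median of 0.037 where bright (123 probes) and 0.075 where not. With normexp background correction all 10 ratios moved towards 0, to between 1.05 and 1.77 at 20 h and between -2.53 and -1.46 at 32 h.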

How the data were processed

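RNA from NIH-3T3:Per2-Luc cells was hybridized to one-color (Cy3) Agilent mouse arrays, 4 arrays on 1 slide with 43020 probe spots used here for 39429 probes. The deposited intensities are spot signals that the authors extracted with Agilent Feature Extraction 10.7.3.1 (version from the submitters' processing notes), with local background subtraction and spatial and multiplicative detrending per the file headers and no normalization between arrays. In the deposited value table each array's intensities are divided by a constant. Probe positions are those of the design file (mm9), and promoters came from RefSeq (GRCm38.p6).

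Flagged spots (125 to 161 per array) were dropped, no spot was saturated, and 52.7% to 59.1% of probes were well above background. Spots of a probe were averaged as log2 and scaled to the 75th percentile of the array. Repeated probes needed 50% of their spots well above background. A probe detected at 1 hour only was bounded by the lowest detected signal of the other array. Genes were represented by their brightest probe, and lists by counts and medians, since 1 array per condition allows no test. Precision is limited by the small number of arrays, which share 1 slide.

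Named were the clock genes (some are not reported here), measured cell type markers, the 15 bright genes furthest apart each way, up to 4 genes past 1.5-fold per other list and the 5 widest dim probes each way. The members and the 38 lists were chosen with earlier results of these data known. Other scalings, background correction (normexp, offset 50), filters, thresholds and probe rules were tried as alternatives. Those for the signal trend, probe GC, the 1.2-fold limit, spike-in controls without 1 probe and the CHR, ERSE, kappa-B and sterol motifs were chosen after seeing the data. Motif shares describe the lists as drawn up, and whether a motif goes with the ratios was not tested. Counting was tested on simulated data. Python 3.11.15, numpy 2.4.6, pandas 2.3.3, scipy 1.17.1, statsmodels 0.14.6, matplotlib 3.10.9, R 4.3.3 and limma 3.58.1 were used.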

Additional observations from a re-analysis of the deposited data

How the results depend on the processing

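Counts are given as higher at 20 h and higher at 32 h, beside 145 and 349 measured and 15 and 35 bright probes. Without scaling they were 348 and 208 measured and 35 and 15 bright. Bright counts were 190 and 225 with scaling by the median, 7 and 16 with the 75th percentile of probes detected on all arrays, and 8 and 23 with a brightness limit of 1, and with a limit of -1 there were 60 at 32 h. Measured counts were 50 and 207 with normexp, 1910 and 2916 without a detection filter, 967 and 1571 for probes positive and significant, and 407 and 826 with bounds. Thresholds of 1.2-fold, 2-fold and 3-fold gave 1198 and 1572, 39 and 91, and 10 and 26 measured, and 232 and 320, 1 and 5, and 0 and 0 bright probes. The other 45 of 76 counts were within 1.5 times of the value reported. Of 570 values of list medians, 7 belong to medians of at least 0.1 that turned their sign. Without scaling these were glycolysis and HIF targets (0.012), TGF-beta and BMP response (0.0515) and matrix proteases (0.0478, and 0.0165 with the median over probes), and without a detection filter histones (-0.041), keratinocyte (-0.3327) and neuron and muscle markers (-0.226). Endothelial and adipocyte markers moved to -0.4528, and neuron and muscle markers to 0.084 for probes positive and significant. Of 1218 values of named genes none of a gene at least 1.5-fold apart changed sign, and 13, all of dim probes with normexp, moved by more than the spot error. The cause was not tested.

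Single arrays, the slide shared by all conditions, and the dim signal of *Per2*, *Per3* and *Cry1* limit these values, and the errors cover spots only. No paired analysis was possible because each condition has 1 array, numbered 1.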
